A study of Mus musculus with 11 samples.

Results

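The intracellular domain of Notch1 (NICD1) was supplied to mouse liver by a viral vector, and gene expression 5 days later was compared with that of liver given a vector for green fluorescent protein (GFP). Notch receptors are cut when a Delta-like or Jagged ligand on a neighbouring cell binds them. The freed intracellular domain enters the nucleus, joins the DNA-binding protein RBPJ and Mastermind co-activators, and switches on target genes such as those of the Hes and Hey families. In the liver, Notch signaling is best known for directing progenitor cells toward the bile duct lineage. A vector for NICD supplies the signal without ligand or receptor cleavage.

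The comparison used 6 of the 11 arrays of the study, 3 of the NICD1 group and 3 of the GFP group, and every probe other than the control spots. The mice were male C57Bl6/J, 8 weeks old at the injection, which was intraperitoneal. Each mouse received 6e+11 viral genomes of AAV8, a serotype that enters hepatocytes well. In the GFP group the whole dose was GFP vector, whereas the NICD1 group received 3e+11 of NICD1 vector together with 3e+11 of GFP vector. Each vector was built on a CMV promoter, which is active in many cell types and does not limit expression to hepatocytes. Control mice had thus also received virus, at the same total dose but with more of the GFP vector. The 5 remaining arrays came from an NICD2 group (3 arrays, 3e+11 each of NICD2 and GFP vector) and an NICD1&2 group (2 arrays, 3e+11 each of the NICD1 and NICD2 vectors, without GFP vector), and they entered the fit to share its estimate of the spread. Total liver RNA was labelled with Cy3 and hybridized in 1 colour. The labels number the arrays of a group without naming a mouse, so that p-values measure the spread between these arrays.

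Signals were expressed as the log2 normalized signal, that is log2 of the signal less the 75th percentile of the array, and 0 therefore marks the 75th percentile. Of 59305 spots per array that were not controls, 57.4% to 60.6% were well above background in the GFP group and 58.3% to 62.02% in the NICD1 group, and 0 spots were saturated. Testing was limited to the 36058 probes that 2 or more of the 11 arrays measured well above background. Between replicates the SD of a probe had a median of 0.17 in both groups. The array GFP 1 stood apart among dim probes. The 5th percentile of the tested probes lay at -5.97 on GFP 1, at -4.59 and -4.81 on GFP 2 and GFP 3, and between -4.83 and -4.72 on the NICD1 arrays, while the medians of all 6 arrays lay between -1.24 and -1.18. The arrays were on 2 slides, with GFP 1, GFP 2 and NICD1 1 on slide 1 and GFP 3, NICD1 2 and NICD1 3 on slide 2, and values within each slide are given for the leading genes and lists. As for the tissue label, all 18 listed hepatocyte-secreted proteins were well above background on all 6 arrays, and Alb, the gene of albumin, ranged from 9.94 to 10.29.

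Few probes changed beyond the spread between arrays, and all of them were higher with NICD1. With limma, 3 of 36058 probes (0.00832%) had a Benjamini-Hochberg adjusted p under 0.05, and such probes are termed called. They were the probes of Wfdc3 and Pfkfb4 and a probe without a gene name. For lower signal with NICD1, limma called 0 probes, and 909 of the 36058 had an unadjusted P under 0.05, against 1068 higher ones. With 1 probe a gene, 3.02% of genes were lower at that P and 2.83% were higher. Altered genes were defined in the study by a fold change over 1.8 and a P under 0.15, which was taken here as the unadjusted P. In limma 801 probes (2.22%) met that definition, 623 of them higher (1.73%) and 178 lower (0.494%). With quantile normalization the split was 434 higher and 263 lower, and with normexp background correction it was 49 and 23. Over all tested probes, 6.98% had every NICD1 array above every GFP array and 5.44% the reverse. Among the altered probes 359 separated the groups in this way. Counted by gene, each of 16632 genes by the probe with its highest mean, 2 genes (0.012%) were called, and 7.4% of genes separated the groups upward and 6.72% downward.

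**Figure D1:**
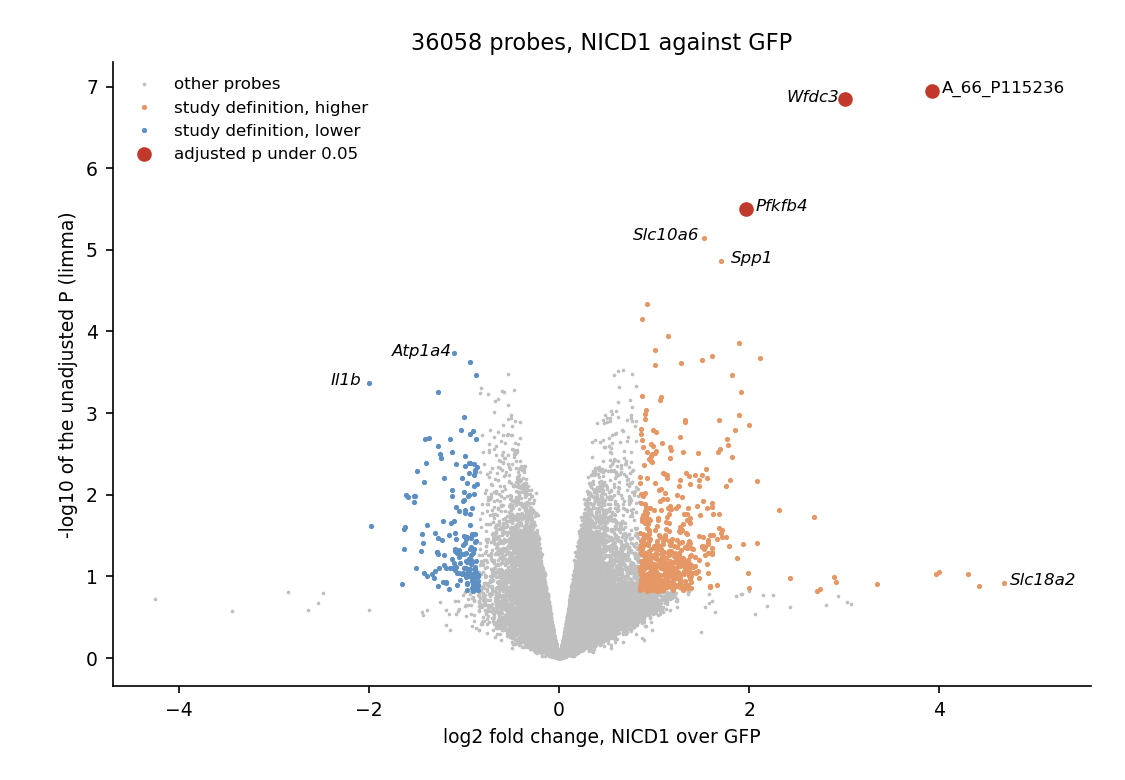
Log2 fold change of NICD1 over GFP (horizontal axis) against -log10 of the unadjusted P of limma (vertical axis) for each of 36058 probes. Orange and blue points met the study's definition (623 higher, 178 lower), and the 3 large red points were called at an adjusted p under 0.05, all on the right.

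Dim probes made up much of the altered set. Of the 623 higher probes, 306 were well above background on 0 GFP arrays, and 72 were well above background on all 6 arrays. Of the 178 lower probes, 71 were well above background on 0 NICD1 arrays and 50 on all 6. GFP 1 held the lowest of the 6 values for 515 of the 623 higher probes, GFP 2 for 44 and GFP 3 for 64. Without GFP 1 the altered probes numbered 209 higher and 301 lower. Without GFP 2 there were 1841 higher and 183 lower, and without GFP 3 there were 1151 higher and 205 lower. Leaving out NICD1 1, NICD1 2 or NICD1 3 gave 761, 457 or 530 higher and 305, 176 or 304 lower probes. In all 6 fits that leave out 1 array, 121 probes met the definition with an unchanged sign (91 higher, 30 lower), and those with a name stood for 62 genes.

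**Figure D2:**
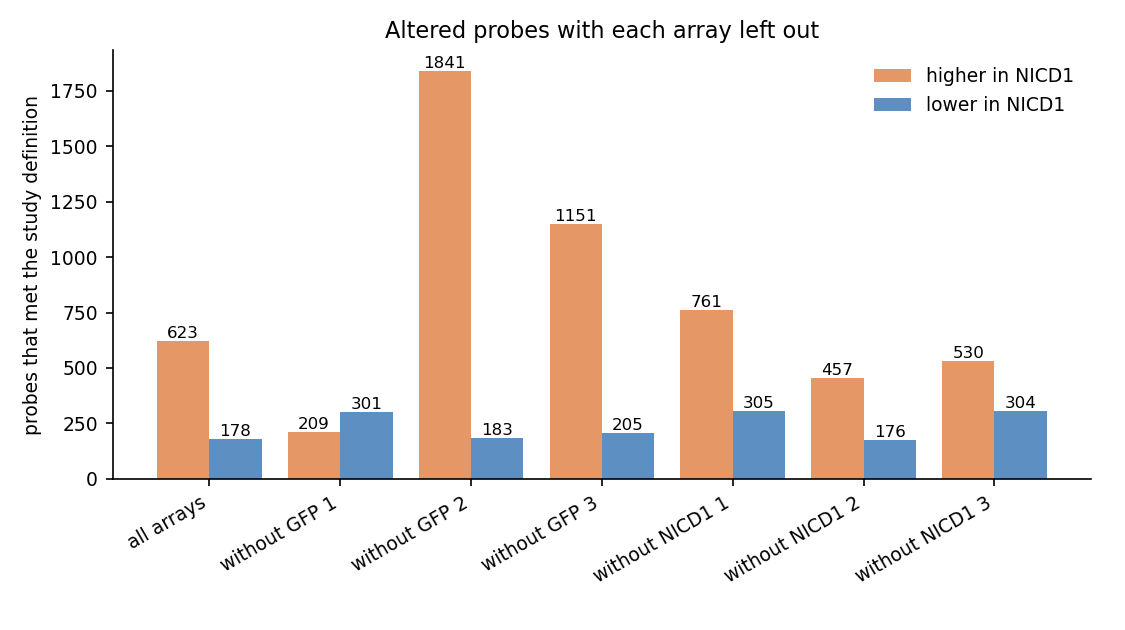
Number of probes that met the study's definition (vertical axis), higher in NICD1 in orange and lower in blue, with all arrays and with each of the 6 arrays left out. The higher probes ranged from 209 without GFP 1 to 1841 without GFP 2.

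Wfdc3 was the named gene with the smallest p. It encodes a protein of the WAP four-disulfide core family, secreted proteins many of which inhibit proteases, and lies on chromosome 2 at 164731226 to 164745994 of GRCm38.p6. Its log2 normalized signal was -4.23, -3.77 and -4.35 on the GFP arrays and -1.24, -0.95 and -1.14 on the NICD1 arrays. All 3 NICD1 arrays lay more than the whole range of the GFP arrays above them. This was a log2 fold change of 3.01, or 8.04-fold (SE 0.20, adjusted p = 0.00259). It was 2.76 within slide 1 and 3.30 within slide 2, and between 2.89 and 3.18 with each array left out, always called. Of the 3 GFP arrays, 2 measured Wfdc3 well above background, so the lower level was close to background. With normexp correction, which adds an offset to every signal and so weighs most on low ones, the log2 fold change was 0.996, still called. In a fit of the 6 arrays alone the adjusted p was 0.0598. A second Wfdc3 probe, well above background on 0 GFP arrays and on 3 NICD1 arrays, was at least 2.87-fold higher (adjusted p = 0.516). Over the alternatives the adjusted p of Wfdc3 ran from 0.0012 to 0.516.

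Pfkfb4, on chromosome 9 at 108988272 to 109032236, encodes an enzyme that makes and breaks down fructose 2,6-bisphosphate, the strongest known activator of phosphofructokinase-1 in glycolysis. Its log2 normalized signal was -2.51, -2.98 and -2.62 with GFP and -0.83, -0.32 and -1.06 with NICD1. The groups did not overlap, and all 6 arrays were well above background. NICD1 was higher by a log2 fold change of 1.96, or 3.90-fold (SE 0.19, adjusted p = 0.0377), with 1.91 within slide 1 and 1.93 within slide 2. The size stayed between 1.75 and 2.12 with each array left out, but the call did not. The adjusted p was 0.0669 without GFP 1, 0.153 without GFP 2, 0.128 without GFP 3 and 0.256 without NICD1 1. It was also above the threshold with quantile normalization (0.0642), without the filter on dim probes (0.0855), with the slide as a block (0.106) and with the 6 arrays alone (0.770). With normexp correction the log2 fold change was 0.97 and called (adjusted p = 0.0172).

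The called probe without a symbol, A_66_P115236, is annotated on the array with the noncoding RNA accession of an unnamed transcript. Its log2 normalized signal was -4.44, -3.95 and -3.74 with GFP and -0.07, 0.04 and -0.31 with NICD1. All 3 GFP and all 3 NICD1 arrays were well above background, and the groups lay far apart. Its log2 fold change was 3.93 (SE 0.26, adjusted p = 0.00259), with 4.12 within slide 1 and 3.60 within slide 2. It was called with each array left out, and in the 6 arrays alone its adjusted p was 0.0598. With normexp correction the log2 fold change was 1.69.

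The promoters of both named called genes are shown because RBPJ, the partner of NICD, binds the core TGGGAA. Each window holds 300 bases around a RefSeq transcript start in GRCm38.p6, printed 5′ to 3′ on the strand of the gene. Capitals mark TGGGAA or its reverse complement TTCCCA, and both strands were searched. The Wfdc3 window is chr2:164743218-164743517 on the minus strand, and the Pfkfb4 window is chr9:108991652-108991951 on the plus strand.
Wfdc3: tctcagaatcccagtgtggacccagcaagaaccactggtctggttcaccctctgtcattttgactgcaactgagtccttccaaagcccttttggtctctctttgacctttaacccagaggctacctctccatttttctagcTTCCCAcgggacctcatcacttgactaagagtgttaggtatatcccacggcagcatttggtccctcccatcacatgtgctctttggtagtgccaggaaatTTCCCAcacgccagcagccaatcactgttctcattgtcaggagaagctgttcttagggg
Pfkfb4: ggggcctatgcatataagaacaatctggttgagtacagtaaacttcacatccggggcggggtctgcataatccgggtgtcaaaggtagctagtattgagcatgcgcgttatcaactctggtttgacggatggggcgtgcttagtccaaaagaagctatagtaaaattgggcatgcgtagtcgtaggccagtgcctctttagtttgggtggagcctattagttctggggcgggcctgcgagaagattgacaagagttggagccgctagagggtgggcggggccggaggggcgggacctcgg
The Wfdc3 window held 2 matches, both on the strand opposite to the gene, beginning 109 and 9 bases before the start site. Both were also matches to the longer GTGGGAA, which contains TGGGAA. The Pfkfb4 window held 0 of either. Among all 32851 promoter windows of the same length, 25.6% held TGGGAA and 6.38% held GTGGGAA, and 0.256% held GTGGGAA at least 2 times. Of the 24 named genes that were called or led the separated altered genes, 16 had a window, 7 of them with TGGGAA and 2 with GTGGGAA. The 16 genes had 18 windows, since Dnase1 and Spp1 had 2 each, and Wfdc3 and Pfkfb4 had 1 each. For Wfdc3 and Pfkfb4 the start sites lie within the span that the same annotation gives for the gene, and promoters of other transcript starts were not searched. A match is a description of the letters and not of binding.

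Genes of the endogenous Notch pathway were read in short lists, beside the 1.75% of all genes that met the definition in either direction. At that share, 0 genes in a short list is not a result about its members. Of 3 ligand genes with a tested probe, Dll1, Dll4 and Jag1, 0 met the study's definition, and their median log2 fold change was 0.22, against 0.0022 over the 16632 genes with a tested probe. Jag1, which encodes the ligand Jagged-1, measured -1.26, -1.29 and -1.44 with GFP and -1.20, -1.06 and -1.06 with NICD1. The groups did not overlap, but the log2 fold change of 0.22 (SE 0.10, adjusted p = 0.903) was small and did not pass. Dll4, the Delta-like ligand of endothelial cells, had 0.36 (SE 0.28, adjusted p = 0.917) and 0.03 without GFP 1. Dll1 had 0.03 (SE 0.26), with -0.21 within slide 1 and 0.53 within slide 2. The probe of Jag2 was not above background on enough arrays to be tested.

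Among 4 receptors the median was 0.18 and 0 met the definition. Notch1 measured 0.69, 0.66 and 0.30 with GFP and 0.56, 0.81 and 0.95 with NICD1, so the groups overlapped. Notch1 had a log2 fold change of 0.22 (SE 0.28, adjusted p = 0.940), with -0.11 within slide 1 and 0.58 within slide 2. Where on the transcript this probe lies is not given in the sources used here, and a probe outside the part that the vector carries would not read the vector. The array values therefore give no check of the supplied NICD1. Notch2, the receptor that dominates in bile duct formation, measured 1.86, 1.66 and 1.77 with GFP and 1.97, 2.09 and 2.10 with NICD1. The groups did not overlap, with a log2 fold change of 0.29 (SE 0.10, adjusted p = 0.825). The 17 genes of receptor glycosylation, cleavage and turnover had a median of 0.02, and the 9 genes of the nuclear complex, Rbpj and the Mastermind genes among them, had 0.05. In both lists 0 genes met the definition.

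Of 15 listed Notch target genes 11 could be tested, 7 above 0 and 4 below, with a median log2 fold change of 0.23 (0.05 to 0.29 with each array left out, and 0.06 with the slide as a block). Of these, 1 met the study's definition, against 1.31% of all genes for higher signal. It was Nrarp, a short ankyrin repeat protein that Notch induces and that dampens Notch signaling. Nrarp measured -6.93, -6.43 and -4.61 with GFP, where it was well above background on 0 arrays, and -3.90, -3.83 and -5.20 with NICD1, where it was on 2. The groups overlapped, since GFP 3 lay above NICD1 3. By group means Nrarp was at least 1.42-fold higher with NICD1 (adjusted p = 0.839), and without GFP 1 that bound was 1.26-fold. For this bound, each GFP array counted at its lowest signal that was well above background, or at the signal of the probe if larger. The NICD1 arrays counted as measured. Bounds of this kind compare group means and leave out the spread between arrays. The measured difference was 2.78 within slide 1 and 0.09 within slide 2. Hes1, the best-known Notch target, measured -1.77, -2.64 and -3.06 with GFP and -3.12, -1.84 and -2.59 with NICD1. The 2 sets of values interleaved, and the log2 fold change was -0.03 (SE 0.45, adjusted p = 0.993). It was -0.92 within slide 1 and 0.84 within slide 2, and without GFP 1 it was 0.33. Snai1, a repressor of epithelial genes, separated the groups with 0.40 (SE 0.16, adjusted p = 0.884), and Sox9, the bile duct transcription factor, had 0.23 (SE 0.28, adjusted p = 0.939).

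Of the bile duct genes, Spp1 stood out. It encodes osteopontin, a secreted phosphoprotein made in the liver by bile duct cells and some macrophages. Its log2 normalized signal was 2.63, 2.83 and 3.20 with GFP and 4.43, 4.89 and 4.45 with NICD1. Every NICD1 array was more than 1 log2 unit above every GFP array. Spp1 had a log2 fold change of 1.71, or 3.26-fold (SE 0.20, adjusted p = 0.0988), which met the study's definition without being called. It was 1.70 within slide 1 and 1.48 within slide 2, and between 1.56 and 1.86 with each array left out. The adjusted p passed in 2 alternatives, with normexp correction (0.0172) and when only probes above background on all 11 arrays were tested (0.0277), and ran up to 0.770 in the 6 arrays alone. The 16 bile duct genes tested had a median of 0.16, with 13 above 0 and 3 below, where 50.5% of all genes were above 0. Spp1 was the only one of the 16 to meet the definition, against 1.31% of all genes for higher signal. Krt19 and Krt7, the keratins of bile duct cells, had log2 fold changes of 0.07 (SE 0.23) and 0.44 (SE 0.32), with overlapping groups. Epcam and Cftr, named after their values were seen, separated the groups with 0.69 (SE 0.32, adjusted p = 0.903) and 0.41 (SE 0.20, adjusted p = 0.903). Epcam was 0.28 without GFP 1. The summed level of the list, in multiples of the 75th percentile, was 14.0 to 17.2 on the GFP arrays and 30.6 to 38.8 on the NICD1 arrays with Spp1 included. Without Spp1, a sum chosen after seeing the data, the 15 other genes gave 7.76 to 8.56 with GFP and 8.79 to 9.13 with NICD1.

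Secretory epithelial genes were represented by 17 tested genes, the WAP domain, secretoglobin, trefoil and mucin families among them. Besides Wfdc3, Scgb1a1 met the study's definition (1.31% of all genes did so upward). It encodes the secretoglobin of airway club cells. It measured -4.30, -4.40 and -3.90 with GFP and -2.89, -1.57 and -2.84 with NICD1, and 2 of the 3 GFP arrays measured it well above background. All NICD1 arrays were above all GFP arrays, with NICD1 2 the highest. Its log2 fold change was 1.77, or 3.41-fold (SE 0.41, adjusted p = 0.679), with 1.46 within slide 1 and 1.70 within slide 2, and with normexp correction it was 0.47. The list had a median of 0.22, with 12 genes above 0 and 5 below, and -0.0082 without GFP 1. Wfdc21, another member, separated the groups in the other direction, from 7.95 to 8.20 with GFP and from 7.63 to 7.77 with NICD1, a log2 fold change of -0.38 (SE 0.11, adjusted p = 0.756). Of 13 tested keratins, Krt4 and Krt13, which belong to stratified epithelia, met the definition (1.31% of all genes did so upward) with 0.98 (SE 0.58) and 0.87 (SE 0.43), but without GFP 1 they had 0.25 and 0.43. Krt8 and Krt18, the keratins of hepatocytes, had -0.17 (SE 0.13) and -0.14 (SE 0.15).

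Among 24 genes of glycolysis and fructose 2,6-bisphosphate metabolism, the median was -0.04, with 10 above 0 and 14 below, and 3 met the definition for higher signal (12.5%, against 1.31% of all genes). The called Pfkfb4 and Pfkfb3 were among them. Pfkfb3, a second gene of the Pfkfb family, measured 1.44, 2.59 and 4.08 with GFP and 3.60, 3.87 and 3.86 with NICD1. The GFP arrays spread widely and GFP 3 was above all NICD1 arrays, so the log2 fold change of 1.07 (SE 0.52, adjusted p = 0.903) was 1.59 within slide 1 and -0.22 within slide 2, and 0.44 without GFP 1. Pfkfb2, named after its values were seen, measured 1.17, 1.24 and 1.28 with GFP and 1.52, 1.66 and 1.86 with NICD1, without overlap. Its log2 fold change was 0.45 (SE 0.13, adjusted p = 0.769), and 2 other probes of it had 0.28 and 0.32. Pfkfb1, the form that predominates in liver, had -0.19. Pgk1, a bulk enzyme of the pathway, had -0.12 (SE 0.11), with overlapping groups. For Slc2a1, the glucose transporter GLUT1, the log2 fold change was -0.32 (SE 0.12, adjusted p = 0.884).

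The other genes with the largest higher signal, among those that met the definition, separated the groups and were well above background on all 3 NICD1 arrays, were of mixed kinds. Tmprss7, a membrane-bound serine protease, measured -5.90, -5.00 and -4.60 with GFP and -3.13, -2.45 and -3.59 with NICD1. It was well above background on 0 GFP arrays and on all 3 NICD1 arrays, which made it at least 3.38-fold higher (adjusted p = 0.516). Its measured log2 fold change was 2.32 within slide 1 and 1.58 within slide 2. Fam83a, Mfsd13b and Pcdh10, a protocadherin of cell adhesion, were also above background on 0 GFP arrays and were at least 2.79-fold, 2.55-fold and 2.12-fold higher (adjusted p from 0.769 to 0.839). For Fam83a and Pcdh10 GFP 1 was the lowest of the 6 arrays, at -6.96 and -6.75, and without it their measured log2 fold changes were 1.27 and 0.92, in place of 2.08 and 1.62. Over GFP 2 and GFP 3 alone, a choice also made after seeing the data, the bounds were 2.42-fold for Fam83a and 1.90-fold for Pcdh10. With normexp correction the measured log2 fold changes of these 4 genes were between 0.12 and 0.31.

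Dnase1, a secreted endonuclease, was well above background on all 6 arrays. It measured -1.61, -1.16 and -1.79 with GFP and 0.74, 1.08 and -0.39 with NICD1, so the groups did not overlap. The log2 fold change was 2.00, or 3.99-fold (SE 0.44, adjusted p = 0.659), with 2.13 within each slide, and a second probe gave 1.85. Pdgfrl, a secreted protein that resembles the PDGF receptor, measured -2.89, -2.27 and -1.74 with GFP and -0.14, -0.61 and -1.12 with NICD1. The groups did not overlap. The log2 fold change was 1.68 (SE 0.36, adjusted p = 0.637), with 2.45 within slide 1 and 0.88 within slide 2. A pair of genes owed their place to NICD1 3. Slc18a2, the vesicular monoamine transporter, was at 10.12 on NICD1 3, at -1.83 and -2.29 on NICD1 1 and NICD1 2, and between -2.78 and -2.51 with GFP. Its log2 fold change of 4.69 (SE 2.72, adjusted p = 0.910) was 0.63 without NICD1 3. The noncoding RNA 4930525G20Rik was at 4.68 on NICD1 3 and at 0.35 and 0.29 on the other NICD1 arrays, and its log2 fold change of 1.66 was 0.21 without NICD1 3.

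**Figure D3:**
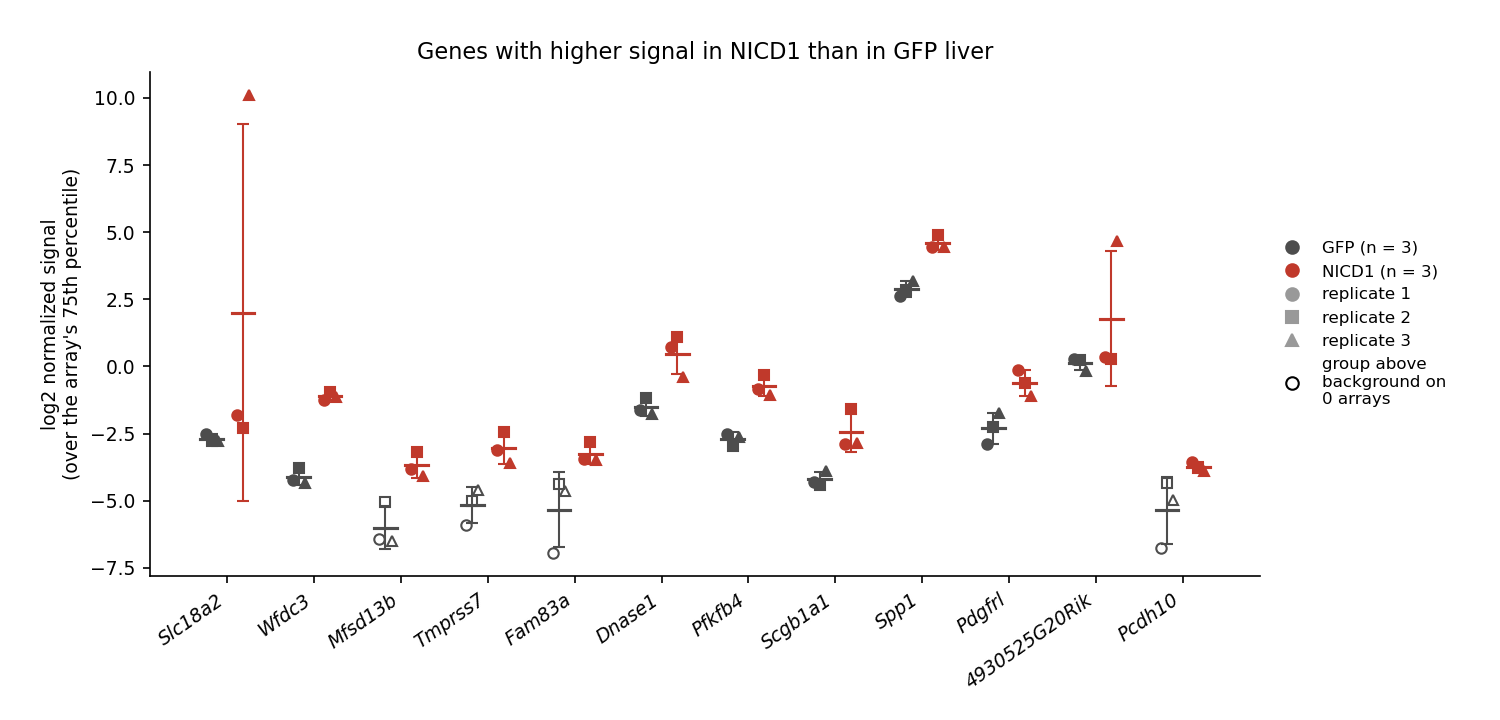
Log2 normalized signal (vertical axis) of the 12 separated genes with the highest log2 fold change among those that met the study's definition and were well above background on all 3 NICD1 arrays, GFP arrays in grey and NICD1 arrays in red, with the mean as a line and the SD as an error bar (n = 3 in each group) and marker shapes for the replicate numbers. Open markers show groups above background on 0 arrays. Wfdc3, Pfkfb4 and Spp1 had tight groups, whereas the means of Slc18a2 and 4930525G20Rik were set by NICD1 3, at 10.12 and 4.68.

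On the lower side, inflammatory genes led. Il1b encodes the cytokine interleukin-1β, made mainly by macrophages and monocytes. It measured -0.45, -0.74 and -0.40 with GFP and -2.54, -2.60 and -2.46 with NICD1, and all 6 arrays were well above background. Each group was tight, and the gap between them was several times its range. Il1b had a log2 fold change of -2.004 (SE 0.37, adjusted p = 0.594), with -1.94 within slide 1 and -2.13 within slide 2, and between -2.11 and -1.94 with each array left out. A second probe gave -1.21 (SE 0.34, adjusted p = 0.756). Il1b met the study's definition and was called with normexp correction (-0.97, adjusted p = 0.0491). Of 16 listed inflammatory cytokine genes, 12 were tested. All 12 had a log2 fold change below 0, where 49.5% of all genes were below 0, and their median was -0.26 (-0.45 to -0.04 with each array left out, the latter without GFP 3). The median was -0.12 within slide 1 and -0.87 within slide 2. Only Il1b met the definition, against 0.439% of all genes for lower signal. Il1a and Cxcl10 had -0.63 each (SE 0.24 and 0.35) and Tnf had -0.03.

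Acute phase genes, which hepatocytes express in response to such cytokines, were also below 0. Of 18 tested, 17 had a log2 fold change below 0 and 1 above, with a median of -0.31 (-0.37 to -0.23 with each array left out). By the unadjusted P, 9 were under 0.05 and lower (3.02% of all genes), and 9 separated the groups downward (6.72% of all genes). Saa1 and Saa2, near-identical genes of serum amyloid A, met the study's definition (0.439% of all genes did so downward). Saa1 measured 7.68, 5.36 and 6.45 with GFP and 4.92, 5.25 and 4.73 with NICD1, and Saa2 measured 8.51, 6.09 and 7.25 with GFP and 5.64, 6.07 and 5.57 with NICD1. The groups did not overlap, but GFP 2 lay just above NICD1 2 for both genes and GFP 1 was the highest. Their log2 fold changes were both -1.53 (SE 0.47 and 0.49, adjusted p = 0.788 and 0.804), and without GFP 1 they were -0.94 and -0.92. Whether each probe reads only its own gene was not tested. Apcs, serum amyloid P, and Orm2 and Itih4, named after their values were seen, separated the groups with log2 fold changes of -0.66 (SE 0.16), -0.40 (SE 0.11) and -0.36 (SE 0.10), with adjusted p from 0.696 to 0.769. Apcs measured 3.38, 3.11 and 3.01 with GFP and 2.32, 2.44 and 2.74 with NICD1. The fibrinogen genes Fgb and Fgg had -0.26 (SE 0.10) and -0.21 (SE 0.09), both separated, and Crp had -0.0034.

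Markers of macrophages had mostly small log2 fold changes of the same sign. All 18 Kupffer cell and monocyte genes had log2 fold changes below 0 (49.5% of all genes did), with a median of -0.26 (-0.41 to -0.17 with each array left out), -0.13 within slide 1 and -0.46 within slide 2. Their summed level was 126 to 182 on the GFP arrays and 126 to 141 on the NICD1 arrays, so the ranges overlapped. Marco, a scavenger receptor of Kupffer cells, alone met the definition (0.439% of all genes did so downward), at 3.80, 2.32 and 3.53 with GFP and 2.21, 2.16 and 2.62 with NICD1. GFP 2 lay within the NICD1 range, and the log2 fold change was -0.89 (SE 0.45, adjusted p = 0.903), or -0.59 without GFP 1. Clec4f and Timd4, which mark resident Kupffer cells, had -0.15 and -0.26, and Ccr2, a monocyte receptor, had -0.38 (SE 0.20). In bulk liver, fewer cells of a type and less RNA per cell cannot be told apart. The part of these markers in the Il1b and acute phase values was not tested. The 19 interferon response genes had a median of -0.23, with 17 below 0, 0 that met the definition, and medians of 0.0088 within slide 1 and -0.41 within slide 2.

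Further genes with a large lower signal did not belong to these lists. Lrtm1, a leucine-rich repeat membrane protein, had -1.50 (SE 0.41, adjusted p = 0.742), and Smpd3, a neutral sphingomyelinase, had -1.13 (SE 0.28, adjusted p = 0.696), with -0.32 within slide 1 and -1.77 within slide 2. Atp1a4, a sodium pump subunit, had tight groups, at -3.52, -3.33 and -3.62 with GFP and -4.49, -4.53 and -4.78 with NICD1. Its log2 fold change was -1.11 (SE 0.18, adjusted p = 0.516), with -1.06 within slide 1 and -1.03 within slide 2, and it was above background on 1 of 3 NICD1 arrays. With normexp correction it was -0.15. Olfr74, an olfactory receptor, and Lingo4 were above background on 0 NICD1 arrays and were lower by at least 1.90-fold and 2.11-fold. Within slide 1 and slide 2 the measured log2 fold changes were -0.90 and -1.58 for Olfr74 and -1.73 and -0.74 for Lingo4, and with normexp correction they were -0.14 and -0.18.

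Single arrays set 3 more of these values. Metrn, the secreted protein meteorin, was at 4.51 on GFP 3 and at 0.20 and 0.25 on GFP 1 and GFP 2, and its log2 fold change of -1.65 was -0.22 without GFP 3, with -0.41 within slide 1 and -4.42 within slide 2. G0s2, an inhibitor of the triglyceride lipase ATGL, was at 4.09 on GFP 1 and at 2.12 and 1.77 on the other GFP arrays, and its -1.19 was -0.48 without GFP 1, with -1.77 within slide 1 and -0.24 within slide 2. Klf10, a transcription factor induced early by TGF-β, was at 1.08 on NICD1 1 and at 2.80 and 2.85 on the other NICD1 arrays, and its -1.10 was -0.51 without NICD1 1, with -2.28 within slide 1 and -0.48 within slide 2. A second Klf10 probe had -0.95 (SE 0.30) with separated groups. Of 17 immediate early genes, Klf10 was the only one to meet the definition (0.439% of all genes did so downward), and their median of -0.15 was 0.20 without NICD1 1 and -1.01 with the slide as a block.

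**Figure D4:**
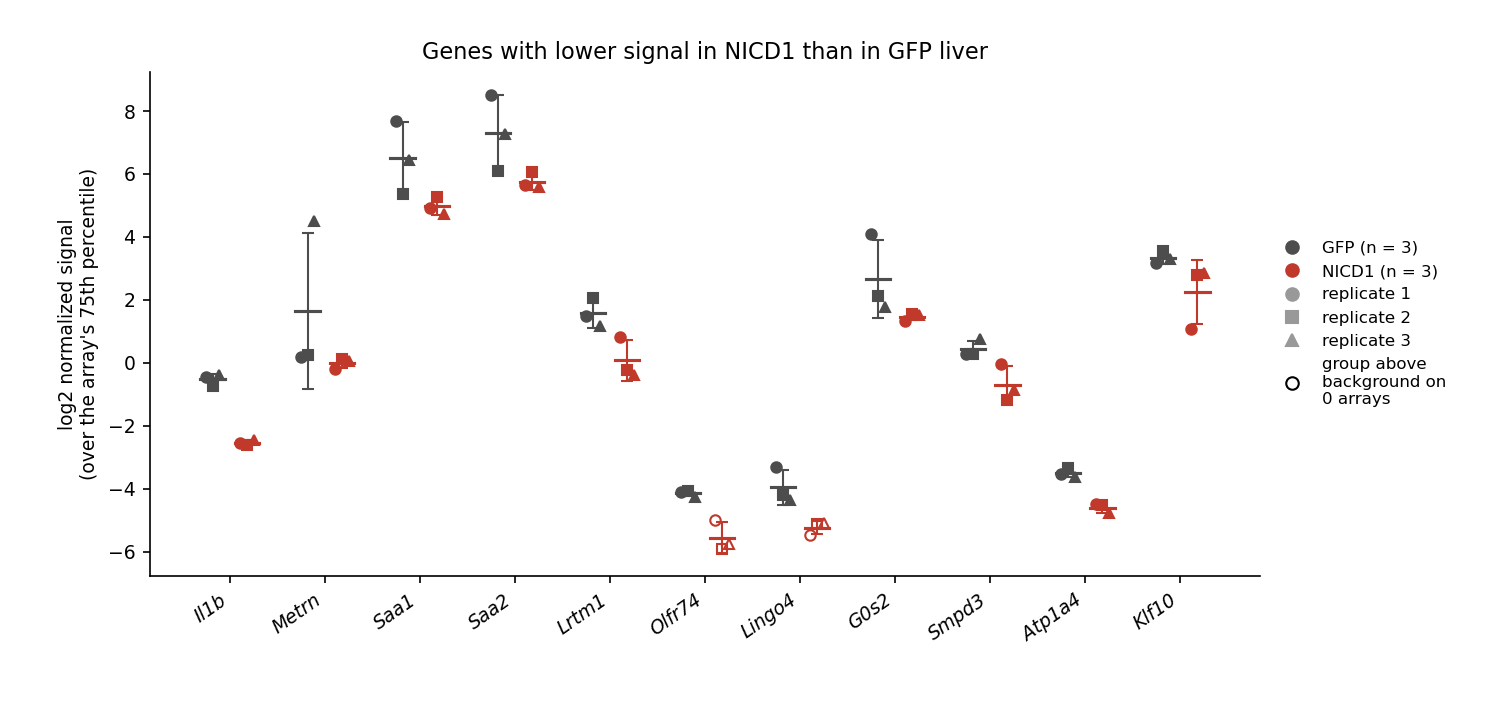
Log2 normalized signal (vertical axis) of 11 of the 12 separated genes with the lowest log2 fold change among those that met the study's definition and were well above background on all 3 GFP arrays (1 is not reported here), with colours, markers, means and SDs as in the plot of higher genes (n = 3 in each group). Il1b and Atp1a4 had tight groups, and Metrn and G0s2 had 1 high GFP array each, at 4.51 and 4.09.

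The study compared the effects of NICD1 and NICD2 and read them in terms of proliferation and apoptosis. Cdk1, the kinase that drives entry into mitosis, measured -3.83, -3.34 and -3.76 with GFP and -2.68, -3.02 and -2.51 with NICD1. The groups did not overlap. For Cdk1 the log2 fold change was 0.91, or 1.88-fold (SE 0.28, adjusted p = 0.782), with 0.90 within slide 1 and 0.996 within slide 2. It fell below the study's fold-change cut without GFP 1 (0.81), without NICD1 3 (0.79) and with quantile normalization (0.84). Without GFP 2, GFP 3, NICD1 1 or NICD1 2 it stayed above that cut, at 0.85 to 1.06. The smallest two-sided p of an exact permutation test in this design is 0.1. With normexp correction the log2 fold change of Cdk1 was 0.20. The 36 tested genes of the G2/M phase had a median of 0.08, with 21 above 0 and 15 below, and the median was -0.14 without GFP 1. Cdk1 was the only one of them to meet the definition upward (1.31% of all genes did), and Cenpe and Gtse1, which act on the mitotic spindle, met it downward (0.439% of all genes did) with -0.98 (SE 0.54) and -0.89 (SE 0.24, adjusted p = 0.742). Cenpe, dim in both groups, was -0.50 without NICD1 2. Mki67 and Top2a, widely used markers of cycling cells, had -0.01 (SE 0.18) and -0.48 (SE 0.22). Of 34 S phase genes 0 met the definition, with a median of 0.07, and Pcna had 0.01 (SE 0.09).

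Cdkn1a, the gene of the cell cycle inhibitor p21, measured 1.19, 1.39 and 2.17 with GFP and 1.48, 1.63 and 0.15 with NICD1. The groups overlapped, with NICD1 3 the lowest of the 6. The log2 fold change was -0.50 (SE 0.39, adjusted p = 0.918), with 0.19 within slide 1 and -1.28 within slide 2, and it was -0.03 without NICD1 3. Of 16 cell cycle inhibitors 0 met the definition, with a median of -0.12. Of 20 listed p53 targets, which include Cdkn1a, 18 were below 0 and 2 above, with a median of -0.25, but 0 met the definition. The p53 median was -0.05 within slide 1 and -0.39 within slide 2. Of 23 pro-apoptotic genes 20 were below 0 and 3 above, with a median of -0.15 (-0.19 to -0.11 with each array left out). Among them 0 met the definition, 5 of the 23 were lower at an unadjusted P under 0.05 (3.02% of all genes were), and 6 of the 23 separated the groups downward (6.72% of all genes did). The 5 were Tnfrsf10b, a receptor for the death ligand TRAIL, at -0.64 (SE 0.20), Bik at -0.44 (SE 0.17), Casp9 at -0.25 (SE 0.10), Fas at -0.24 (SE 0.10) and Casp6 at -0.23 (SE 0.09). Their adjusted p lay between 0.788 and 0.888. Other probes gave 0.51 (SE 0.45), of the other sign, for Tnfrsf10b, a value near 0 for Fas (-0.03), and a similar one for Casp9 (-0.21). The 14 anti-apoptotic genes had a median of 0.05, with 9 above 0, 5 below and 0 that met the definition. Bag3, Birc5 and Cflar separated the groups upward (7.4% of all genes did), at 0.55 (SE 0.14), 0.41 (SE 0.12) and 0.38 (SE 0.12), with adjusted p from 0.699 to 0.799. Birc3 separated them downward (6.72% of all genes did), at -0.32 (SE 0.17, adjusted p = 0.904). For Cflar, 3 other probes had 0.47, 0.13 and -0.05.

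Hepatocyte identity genes differed little between the groups. The 18 secreted proteins had a median of -0.15, with 17 below 0 and 0 that met the definition, but with quantile normalization the median was -0.02 and with normexp correction it was 0.0065, so no direction held. Alb was -0.15 (SE 0.13), or 0.05 with quantile normalization. The 17 hepatocyte transcription factors had a median of 0.04, and Hnf4a, the master regulator among them, separated the groups with 0.29 (SE 0.09, adjusted p = 0.782). The 16 periportal and 16 perivenous genes had medians of -0.07 and -0.11. Of the latter 1 met the definition (0.439% of all genes did so downward), Axin2, a feedback target of Wnt signaling, at -1.44, -2.33 and -2.72 with GFP and -3.00, -3.02 and -3.23 with NICD1. GFP 1 was the highest, and the log2 fold change of -0.92 (SE 0.36, adjusted p = 0.884) was -0.56 without it. A second Axin2 probe had -0.38 (SE 0.40), with overlapping groups.

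Metabolic lists were read beside the 1.75% of all genes that met the study's definition in either direction. Gluconeogenesis (14 genes, median -0.06) and lipogenesis (16 genes, -0.03) held 0 genes that met the definition, which says little for lists this short. Of 18 genes of cholesterol synthesis and uptake, 17 were below 0 with a median of -0.24, which was -0.43 to -0.15 with each array left out, 0.07 within slide 1 and -0.32 within slide 2, and 0 met the definition. Among 20 genes of fatty acid oxidation, 2 met it upward (1.31% of all genes did), Cyp4a10 and Cyp4a14, omega-hydroxylases that PPAR-alpha induces. Cyp4a10 measured 4.37, 4.16 and 2.38 with GFP and 4.28, 4.56 and 4.85 with NICD1, so that GFP 3 alone stood apart, and its 0.93 (SE 0.46) was 0.30 without GFP 3. Cyp4a14 had 1.87 (SE 0.87), with 0.0049 within slide 1 and 4.49 within slide 2, and 0.76 without GFP 3. Mt2, a metallothionein that binds zinc, measured 4.84, 3.20 and 4.30 with GFP and 2.75, 3.33 and 3.24 with NICD1. The groups overlapped, and the -1.01 (SE 0.51, adjusted p = 0.903) was -0.64 without GFP 1. It was the only one of 11 metallothionein and zinc transport genes to meet the definition (median -0.01, with 0.439% of all genes meeting it downward), and 0 of 18 circadian clock genes did (median -0.03).

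Lists of other liver cells had medians close to 0, with -0.02 for 14 sinusoidal endothelial genes and 0.05 for 16 stellate cell and matrix genes, and 0 genes met the definition in either. Of 19 lymphocyte genes, with a median of -0.17, 2 met it, in opposite directions (1.31% of all genes did so upward and 0.439% downward). Cd79a, of the B cell receptor, had -0.93 (SE 0.44), or -0.46 without NICD1 1. Ncr1, of natural killer cells, had 1.003 (SE 0.57), or 0.20 without GFP 1. Of 6 red blood cell genes 0 met the definition, with a median of -0.13. Of 17 exocrine pancreas genes 7 were tested, and 6 had log2 fold changes below 0. The exception was Pnliprp1, a relative of pancreatic lipase, at -5.50, -5.97 and -6.51 with GFP and -3.71, -4.06 and -4.74 with NICD1. It was above background on 0 GFP and 2 NICD1 arrays, which made it at least 1.82-fold higher (adjusted p = 0.516), while the summed level of the pancreas list was 34.9 to 45.7 with GFP and 32.4 to 36.7 with NICD1.

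**Figure D5:**
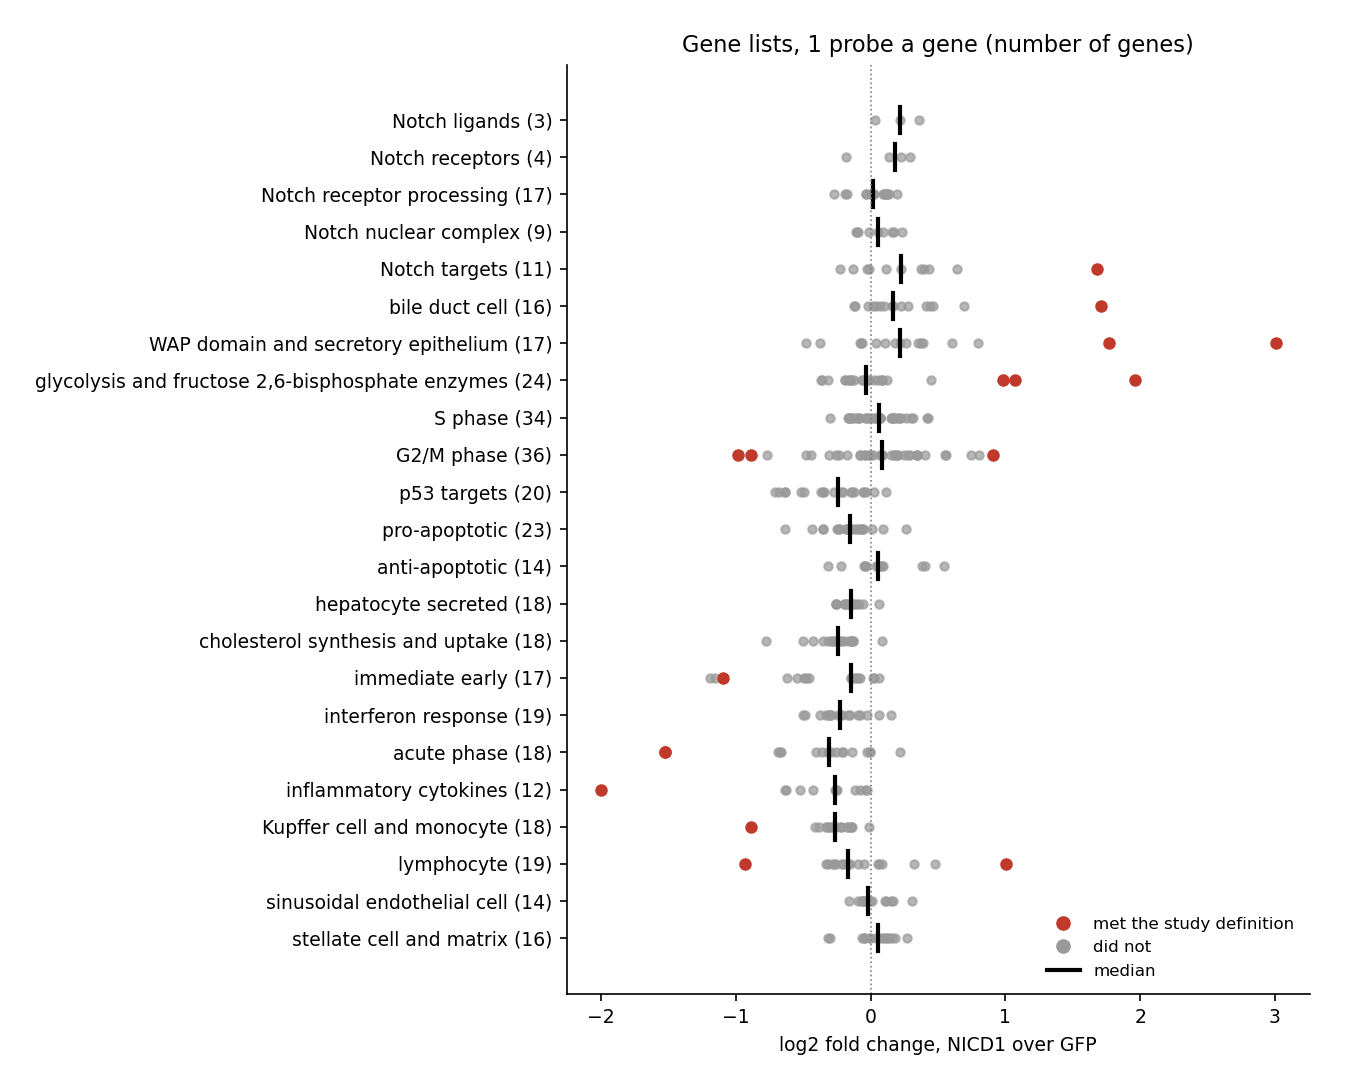
Log2 fold change of NICD1 over GFP (horizontal axis) for the tested genes of 23 lists, 1 probe a gene, with the number of genes in brackets, the median as a black bar and genes that met the study's definition in red. Most medians lie within 0.3 of 0, and the points farthest out are Wfdc3 at 3.01 and Il1b at -2.004.

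The genes that led with NICD1 were also read in the other vector groups, on the same probes. Wfdc3 was at 0.80, 0.995 and 1.18 with NICD2 and at 0.89 and 1.51 with NICD1&2, above all 3 NICD1 arrays. NICD1 was lower than NICD2 by a log2 fold change of -2.10 (SE 0.20), which narrowly missed the threshold (adjusted p = 0.0544). Pfkfb4 was at 0.03, 0.14 and 0.23 with NICD2, also above all NICD1 arrays, with -0.87 for NICD1 against NICD2 (SE 0.19, adjusted p = 0.859). Scgb1a1 and Tmprss7 were likewise higher on every NICD2 array than on any NICD1 array, with -2.004 (SE 0.41, adjusted p = 0.763) and -1.96 (SE 0.35, adjusted p = 0.490). Spp1 was at 4.43, 4.88 and 4.78 with NICD2, overlapping the NICD1 arrays, and the difference was -0.10 (SE 0.20). Over all probes limma called 1 between NICD1 and NICD2 (0.00277%), and 1348 of the 36058 had an unadjusted P under 0.05. The 1 called was Krt79, a keratin of hair follicle ducts, which measured -3.21, -2.82 and -3.25 with GFP, -2.79, -2.28 and -2.31 with NICD1, and 0.80, 0.61 and 0.97 with NICD2. Against GFP, Krt79 in the NICD1 group had 0.63 on the log2 scale (SE 0.19, adjusted p = 0.769), and against NICD2 it was -3.26 (SE 0.19, adjusted p = 0.00111).

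The GFP arrays served as controls for every vector group, so the fold changes against GFP are only set side by side. For Wfdc3 they were 3.01 with NICD1, 5.11 with NICD2 and 5.32 with NICD1&2, and for Pfkfb4 they were 1.96, 2.83 and 2.97. For Spp1 they were 1.71, 1.81 and 2.23, and for Il1b -2.004, -2.34 and -1.74. Whether the NICD1 effect differed in the presence of NICD2 was tested by an interaction term, the NICD1&2 against NICD2 difference less the NICD1 against GFP difference. In limma 0 probes (0%) passed at an adjusted p under 0.05, and 2536 of the 36058 did so before adjustment. The interaction of Wfdc3 was -2.80 and had an adjusted p of 0.144. For Pfkfb4 it was -1.83 (adjusted p = 0.354).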

How the data were processed

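Files of 11 one-colour Agilent arrays (62976 spots each) and a table of normalized values were used. Per the file headers, the deposited processed signals are intensities from which the authors' Feature Extraction software had removed background and a spatial trend, and which were not scaled between arrays. In the deposited table, the values are log2 values that the authors normalized to the 75th percentile of each array. They differed from the values computed here by a constant of 0.0040 to 0.0089 per array. The RNA kit differs between the labels (NucleoSpin RNA XS) and the methods (RNeasy Micro Kit), and the methods name a smaller array format. Matching the probes' RefSeq or Ensembl accessions to RefSeq genes named 32989 of 56605 probes, and 24039 of the 36058 tested.

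Spots of a probe were averaged, control spots (3671) were left out, as were spots flagged as outliers where the probe had another spot, and log2 of the signal less the array's 75th percentile was taken. Probes were kept without regard to group if 2 or more of the 11 arrays measured them well above background. In R 4.3.3, limma 3.58.1 (lmFit, then eBayes) fitted 1 mean for each of the 4 groups to the 11 arrays, with Benjamini-Hochberg adjustment over all tested probes. The number of arrays limits the precision. The fit was tested on simulated data for 36058 probes.

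Genes were named by rule: every called probe; the 12 highest and 12 lowest among altered probes with 1 symbol whose groups did not overlap and which were above background on all 3 arrays of the higher group; Cdk1, Cdkn1a, Hes1, Notch1, Notch2, Dll1, Dll4, Jag1 and Jag2, which the study names; altered members of the gene lists; and the 2 brightest members of each list. The members, the lists and this rule were chosen with earlier results of these data known. Genes outside the rule are said to be named after their values were seen, or are given as members of a list that is counted. Some genes that the rule names are not reported here.

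Other settings were tried: quantile normalization, the 75th percentile of only those probes that every array detected, normexp background correction (offset 50, then quantile), no filter or one that asks for detection on all 11 arrays, the authors' normalized table, the 6 arrays alone, an unmoderated model, array weights, the slide or the replicate number as a block, each array left out, values within a slide, other probes of a gene, and other thresholds.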

Additional observations from a re-analysis of the deposited data

How the results depend on the processing

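Called probes numbered 7 with normexp correction (5 higher, among them Spp1 and Vasn, and 2 lower, Il1b and Srsf5). In the fit of the 6 arrays alone 0 were called, and 2087 of the 36058 had an unadjusted P under 0.05. The lower calls numbered 1 with the unmoderated model (Unk) and 0 to 1 with each array left out (the unnamed A_65_P15482 without GFP 1). Altered probes numbered 72 with normexp correction (49 higher, 23 lower), 2059 without a filter (1564 and 495), 120 with a filter of all 11 arrays (70 and 50), 214 at an unadjusted P under 0.05 with a fold change over 2 (164 and 50) and 5 at an adjusted p under 0.15 (5 and 0). With each array left out they ranged from 510 to 2024, the higher ones from 209 to 1841 and the lower ones from 176 to 305. The higher ones numbered 366 with array weights and 394 with the slide as a block. Between NICD1 and NICD2 there were 2 calls with quantile normalization, the percentile over probes above background or array weights, 5 with normexp correction, and 1 to 2 with each array left out. The interaction had 1 call with the filter of all 11 arrays. The cause was not tested, save that the filters change how many probes are tested and the 6 arrays alone leave fewer degrees of freedom. Of the 58 genes followed across the alternatives, 51 had no alternative of the other sign. Genes given only as members of a list were not followed, and some of them near 0 turned, such as Krt8 (0.0038 within slide 1) and Pcna (-0.04 within slide 1). The exceptions among the 58 were Notch1 (-0.11 within slide 1), Dll1 (-0.0049 with normexp correction, -0.21 within slide 1, and -0.23 to 0.24 with each array left out), Hes1 (0.21 with array weights, 0.84 within slide 2, and -0.37 to 0.33 with each array left out), Pfkfb3 (-0.22 within slide 2), Cdkn1a (0.19 within slide 1), Alb (0.046 with quantile normalization, 0.021 with normexp correction) and Cftr (-0.0032 with normexp correction). Replicate numbers were not taken as pairs, since the labels name no mouse. The residuals of same-numbered GFP and NICD1 arrays correlated at 0.17, 0.16 and 0.02, and those of differently numbered ones at -0.21 to 0.12. So few arrays cannot decide whether the numbers mark pairs. With the replicate block 2 probes were called and 765 altered, and Pfkfb4 had an adjusted p of 0.327. Of the 623 higher altered probes, 306 were above background on 0 GFP arrays, where the size is only bounded.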

Other observations

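Outside the lists, 3 chaperone genes (Hspa1a, Hspa1b and Hsph1), picked after their values were seen, were higher on every NICD1 array than on every GFP array (7.4% of all genes were). Other heat shock genes were not counted. Hspa1a and Hspa1b, the inducible chaperones of the HSP70 family, measured -0.43, -0.94 and -0.09 against 0.24, 0.99 and 0.76, and 1.01, 0.65 and 1.09 against 1.79, 2.25 and 1.78. Their log2 fold changes were 1.15 (SE 0.38, adjusted p = 0.826) and 1.02 (SE 0.25, adjusted p = 0.696). Hsph1, a co-chaperone of HSP70, had 0.97 (SE 0.25, adjusted p = 0.737). The 3 genes met the study's definition with each array left out, and they were among 62 named genes that did so. With the slide as a block Hsph1 had 0.80, below the 1.8-fold cut.

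Lpin1, a phosphatidate phosphatase of lipid synthesis, had a log2 fold change of 1.37, and other probes of it had 1.48 and 0.72. Defb1, an antimicrobial defensin of epithelia, measured -1.51, -1.83 and -1.48 with GFP and -0.65, -0.37 and -0.77 with NICD1, with 1.01 (SE 0.17, adjusted p = 0.516). Slc10a6, a transporter of sulfated steroids, had 1.53 (adjusted p = 0.0642) and was called with array weights (adjusted p = 0.0262), but its probe was above background on 0 of the 6 arrays and with normexp correction it had 0.07. For Mt1, the partner of Mt2, 1 probe had -0.44 (SE 0.37) and another -1.98 (SE 0.73, adjusted p = 0.884).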
